A study of Mus musculus with 2 samples.

Results

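The cells described here had accessible chromatin rich in both the POU4F motifs and the proneural motifs. They were 160 of 1941 kept cells from the retina of wild-type mouse embryos at E14.5, 78 of 890 in replicate 1 and 82 of 1051 in replicate 2. Chromatin accessibility of single cells was measured with the 10x Genomics droplet assay, in which a transposase cuts open DNA. The labels give tissue retina, age E14.5 and genotype WT for both libraries, so the series has 1 group and no treatment or mutant. Nothing in them ties the replicates to separate animals or dissections. The p-values below speak only for how far differences between classes of cells vary across these 2 libraries. The libraries' own difference is taken out of the error, and the spread that is left may be technical.

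Retinal progenitors leave the cell cycle and become neurons under the control of proneural basic helix-loop-helix factors, which bind short patterns called E-boxes. In the mouse, ATOH7 of this class makes progenitors competent to become retinal ganglion cells, and NEUROD factors act in newborn neurons of several retinal types. Ganglion cells, the neurons whose axons form the optic nerve, then switch on the POU homeodomain factors POU4F1, POU4F2 and POU4F3, which act in their differentiation, axon growth and survival. A cell with both kinds of site open could therefore be a newborn ganglion cell, but motif counts carry neither time nor lineage, and the cells are called double-high here.

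Each value is a motif count: the cuts, in a cell, in all peaks that hold a given sequence pattern, taken as a share of the cell's total over 579 motifs. It measures open chromatin around the pattern, not binding by the factor and not its RNA, and factors with like patterns share counts. The POU4F score was the mean log2 share of the POU4F1, POU4F2 and POU4F3 motifs. The proneural score was the mean log2 share of the NEUROD1, NEUROD2, Neurog1 and Atoh1 motifs. A cell was double-high when it was in the top 25% of its library for both scores. For comparison, 145 cells of replicate 1 and 181 of replicate 2 were high for POU4F alone, the same numbers were high for proneural alone, and 522 and 607 were high for neither. The cells were thus chosen by the measured shares of these 7 motifs, which are described with no test.

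Kept cells had at least 300000 motif counts, and they were 1941 of 5455 barcodes but held 98.3% and 97.3% of the counts of the 2 libraries. The libraries share 1828 barcodes, and of each only the deeper copy was used. Of the double-high cells, 74 of 78 and 70 of 82 had a barcode also listed in the other library, where the copy held at most 2.79% and 1.78% of the cell's own counts. Their median total was 3595324 counts in replicate 1 and 3190046 in replicate 2, or 1.02 and 0.905 times the library median. No doublet caller was run. Of the double-high cells, 7.69% and 2.44% were among the deepest 10% of their library.

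Double-high cells made up 8.76% of replicate 1 (exact binomial 95% interval 6.99% to 10.8%) and 7.80% of replicate 2 (6.253% to 9.59%); these intervals cover counting error only. The product of the single shares would have put 55.9 and 65.8 cells in the class, so the observed numbers were 1.40 and 1.25 times the product. Seen from either side, 35.0% of the cells high for one score in replicate 1 and 31.2% in replicate 2 were also high for the other. Across all kept cells the scores were only weakly related, with Pearson's r of 0.156 and Spearman's rho of 0.149 over 890 cells, and 0.152 and 0.118 over 1051 cells. All 12 pairs of a POU4F and a proneural motif had a positive r in both libraries, from 0.0815 to 0.190. Cells share library, depth and peaks, so these are descriptions.

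The excess over the product held only at moderate cuts. At the top 20% the ratio of observed cells to the product was 1.29 and 1.16, at the top 30% it was 1.34 and 1.29, and at the top 40% 1.21 and 1.204. At the top 15% it turned to 0.595 and 0.842. At the top 10% only 3 cells of replicate 1 and 5 of replicate 2 were high for both, against products of 8.90 and 10.7, a ratio of 0.337 and 0.468. The cuts at 15% and 40% were added after the other cuts had been seen.

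Ranking the cells by POU4F score showed the same shape in both libraries. In decile 9 of the POU4F score, next to the highest, 55.1% of replicate 1 and 41.0% of replicate 2 were high for proneural motifs. In decile 10 this share was 19.1% and 25.7%, close to the 25% that the cut gives over all cells. Ranked by proneural score instead, the share high for POU4F was greatest in decile 8, at 43.8% and 48.6%, and was 22.5% and 22.9% in decile 10. In both rankings the highest decile lay below the one just before it, in each library.

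**Figure D1:**
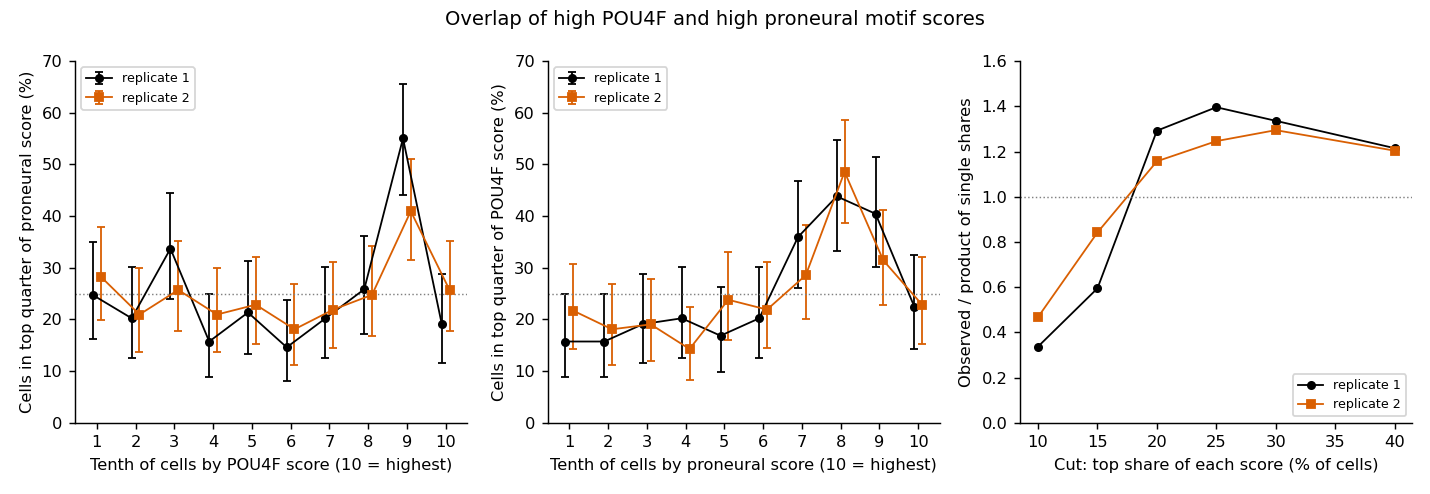
Left and middle, the share of cells in the top 25% of one score (%) for each decile of cells ranked by the other score, with exact binomial 95% intervals; the dotted line is 25%. Right, the observed number of double-high cells over the product of the single shares for cuts from the top 10% to the top 40%; the ratio is below 1 at the top 10% and 15% and above 1 from the top 20% on, in both replicates.

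The POU4F-high cells did not spread evenly along the POU4F score. On the scale of log2 share minus the library median, the double-high cells had a median POU4F score of 0.254 in replicate 1, below the 0.403 of cells high for POU4F alone. In replicate 2 the medians were 0.287 and 0.310, a smaller gap in the same direction. Their median proneural scores were 0.210 and 0.180, against 0.255 and 0.212 in cells high for proneural alone. Between POU4F scores of 0.15 and 0.30, a range set after the scatter had been seen, 23 of 32 POU4F-high cells of replicate 1 (71.9%, 53.3% to 86.3%) and 24 of 56 of replicate 2 (42.9%, 29.7% to 56.8%) were double-high. Above a POU4F score of 0.45 the counts were 11 of 68 (16.2%, 8.36% to 27.1%) and 15 of 56 (26.8%, 15.8% to 40.3%). Below 0.15 the share was 33.3% and 25.6%, and between 0.30 and 0.45 it was 38.9% and 31.5%. The share was higher between 0.15 and 0.30 than above 0.45 in both libraries, more so in replicate 1. In replicate 2 the intervals of these 2 ranges overlap. These shares describe the scores that chose the cells. The intervals cover counting error over cells, which are not replicates.

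**Figure D2:**
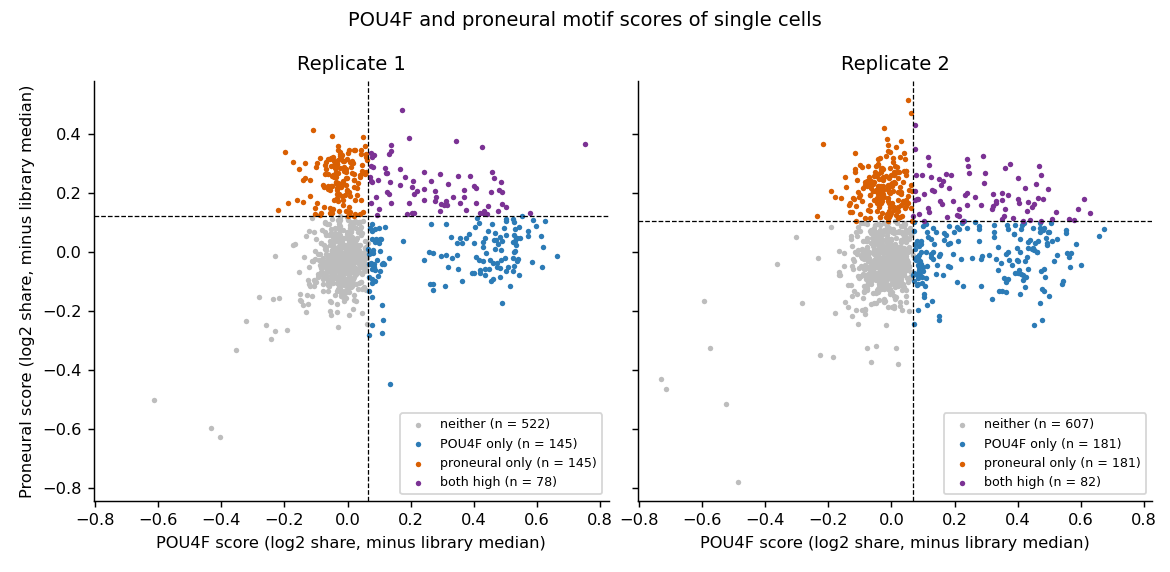
POU4F score (x) against proneural score (y) of each kept cell, both as log2 share minus the library median, for replicate 1 (left) and replicate 2 (right); dashed lines are the top 25% cuts and colours the 4 classes. The double-high cells spread over the whole range of POU4F scores above the cut, from next to the proneural-high column to the POU4F-high cells above 0.45.

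The cuts ran through continuous values. The POU4F cut lay 0.065 and 0.0687 above the library median, and the double-high cell nearest to it had 0.0707 in replicate 1 and 0.0693 in replicate 2, while the nearest cell high for proneural alone had 0.0627 and 0.0657. The proneural cut lay at 0.121 and 0.105, with double-high cells from 0.125 and 0.105 and cells high for POU4F alone up to 0.121 and 0.104. Within 0.02 of the POU4F cut there were 9 double-high cells inside in each library, and 11 and 9 proneural-high cells outside. Of the cells high for POU4F alone, 31.7% and 32.0% had a POU4F score under 0.15, as had 29.5% and 24.4% of the double-high cells.

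The 7 motifs fixed the class and were not all high in each cell. All 7 were in the library's top 25% in 39 of 78 and 37 of 82 double-high cells, and at least 5 were in 75 and 68. The POU4F1 motif took a mean 0.0800% of a double-high cell's counts in replicate 1 and 0.0808% in replicate 2, against 0.0854% and 0.0811% in cells high for POU4F alone, 0.0631% and 0.0626% in cells high for proneural alone, and 0.0630% and 0.0622% in cells high for neither. Its share in the double-high cells was thus nearly that of the POU4F-only cells. The NEUROD1 motif took 0.0510% and 0.0495% in the double-high cells, against 0.0524% and 0.0506% in cells high for proneural alone, 0.0438% and 0.0427% in cells high for POU4F alone, and 0.0419% and 0.0408% in cells high for neither. The 3 POU4F motifs were close to one measure, with r between 0.872 and 0.964 across cells, as were NEUROD2, Neurog1 and Atoh1 with r from 0.871 to 0.957. NEUROD1 was related to these 3 less closely, with r from 0.533 to 0.699.

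What else was open in the double-high cells was measured on counts summed over the cells of each class in each library, in a single edgeR quasi-likelihood fit with the library as a block. Of the 579 motifs, the 7 of the scores and 34 with closely related POU or E-box patterns are given as values with no test, and calls are counted over the remaining 538, at a Benjamini-Hochberg adjusted p under 0.05 over all 579. Motifs share peaks with the 7, so none is fully independent of how the cells were chosen. Correlations across cells with the scores are given for some of the motifs and lists named, and the others are no less tied to the choice. The 538 still hold some E-box patterns outside the lists, Twist2 and Bhlha15 among them, with r of 0.703 and 0.682, and of 0.726 and 0.666, with the proneural score, and they enter the counts below. The comparisons share the double-high class and are not independent of each other. Against cells high for POU4F alone, 184 of 538 motifs were called (34.2%), 101 higher and 83 lower, 76 and 122 with TMM scaling, and 83 and 111 by DESeq2. Against cells high for proneural alone 166 were called (30.9%), 61 higher and 105 lower, 68 and 74 with TMM scaling, and 75 and 70 by DESeq2. Against cells high for neither 315 were called (58.6%), 122 higher and 193 lower, and 173 and 133 with TMM scaling. Of the 538 tested motifs, 53 (9.85%), 33 (6.13%) and 113 (21%) were called with a log2 difference of at least 0.05 in the 3 comparisons. The library block mattered, since without it edgeR called 7, 5 and 60 motifs. Among the motifs discussed below, those still called without it were TEAD1, TEAD3, TEAD4, ONECUT1, CUX1, REST, SNAI2, SCRT1 and SRF against neither, OTX1 against proneural alone, and Twist2 and JUN against POU4F alone.

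The clearest loss was of the TEAD motifs. TEAD1 to TEAD4 are the DNA-binding partners of YAP, which sustains dividing progenitors in the developing retina. The TEAD1 motif took 0.0616% and 0.0600% of counts in double-high cells, against 0.0659% and 0.0647% in cells high for neither, 0.0631% and 0.0620% in those high for POU4F alone, and 0.0621% and 0.0607% in those high for proneural alone. The double-high cells were the lowest of the 4 classes in each library. Against neither, all 4 TEAD motifs were lower (percent of all tested motifs lower, 35.9%), by -0.090 to -0.12 on the log2 scale (TEAD1 -0.116 ± 0.0059 SE, edgeR adjusted p = 1.5e-07), where the median of all tested motifs was -0.0067. Against POU4F alone TEAD1, TEAD3 and TEAD4 were lower (all tested motifs, 15.4%), TEAD4 by -0.049 ± 0.0058 (adjusted p = 0.00014), and TEAD2 had 0.012 (adjusted p = 0.32), or 0.044 at the top 20% cut (adjusted p = 0.00074). Against proneural alone all 4 were lower (all tested motifs, 19.5%), TEAD2 by -0.039 ± 0.0091 (adjusted p = 0.011) and TEAD1 by -0.024 ± 0.0059 (adjusted p = 0.013). The TEAD1 call against proneural alone was lost when cells were weighted equally, at a limma adjusted p = 0.12. Counted by cell, 5.13% and 3.66% of double-high cells were in the library's top 25% of the TEAD score, against 36.2% and 37.1% of cells high for neither. Over all kept cells the TEAD score had r of -0.303 and -0.237 with the POU4F score. With the proneural score its r was -0.309 and -0.292, so a low TEAD score in double-high cells is tied to how they were chosen.

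Motifs of SOXC and SOXD factors, and some of the E2F motifs, were also lower than in cells high for neither. SOX4 and SOX11 are SOXC factors needed for ganglion cell formation, and their family shares its pattern with the SOX factors of progenitors, so the motif does not tell them apart. All 5 SOXC and SOXD motifs were lower than in cells high for neither (all tested motifs, 35.9% lower), SOX4 most, by -0.121 ± 0.013 (edgeR adjusted p = 4.1e-05). The SOX4 motif took 0.0110% and 0.0118% of double-high counts and 0.0120% and 0.0128% in cells high for neither, and 2 of the 5 motifs were lower than in cells high for POU4F alone (all tested motifs, 15.4%). The SOXC and SOXD score had r of -0.155 and -0.172 with the POU4F score, and -0.169 and -0.164 with the proneural score. E2F factors with their partner TFDP1 drive genes of DNA replication in dividing cells. Of the 8 E2F and TFDP1 motifs, 4 were lower than in cells high for neither and 3 lower than in cells high for proneural alone, where 35.9% and 19.5% of all tested motifs were lower. Against POU4F alone 1 was higher (all tested motifs, 18.8%). The TFDP1 share had r of -0.368 and -0.332 with the POU4F score. TFDP1 was lower by -0.025 ± 0.0047 (adjusted p = 0.0012) against neither and by -0.038 ± 0.0047 (adjusted p = 0.00053) against proneural alone, and had 0.0029 (adjusted p = 0.65) against POU4F alone. The TFDP1 call against neither was lost with scores corrected for GC-rich promoter motifs (adjusted p = 0.086).

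ONECUT and CUX motifs were raised, though less than in cells high for POU4F alone. ONECUT1 and ONECUT2 act in the formation of ganglion and horizontal cells, and the CUX factors carry the same cut type of DNA-binding domain. The ONECUT1 motif took 0.0374% and 0.0381% of double-high counts, 0.0391% and 0.0396% in cells high for POU4F alone, 0.0372% and 0.0375% in those high for proneural alone, and 0.0343% and 0.0345% in those high for neither. Against neither all 5 motifs were higher (all tested motifs, 22.7% higher), CUX1 by 0.210 ± 0.014 (adjusted p = 1.1e-06) and ONECUT1 by 0.117 ± 0.0082 (adjusted p = 1.7e-06) in edgeR. Against POU4F alone 4 of 5 were lower (all tested motifs, 15.4%), ONECUT1 by -0.079 ± 0.0083 (adjusted p = 6.5e-05) and CUX1 by -0.047 ± 0.015 (adjusted p = 0.031). The CUX1 call was lost at the top 30% cut (adjusted p = 0.85) and with a minimum of 1000000 counts (0.09995). Against proneural alone the 2 CUX motifs of the 5 were higher (all tested motifs, 11.3%), CUX1 by 0.061 ± 0.014 (adjusted p = 0.011) and CUX2 by 0.090 ± 0.025 (adjusted p = 0.023). At the top 20% cut their adjusted p were 0.060 and 0.055. Across cells the ONECUT1 motif had r of 0.470 and 0.507 with the POU4F score, and 0.320 and 0.244 with the proneural score. Its place among the classes is thus tied to the choice of cells.

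The EBF1 and ISL2 motifs were higher than in cells high for proneural alone. EBF1 belongs to the EBF family, which acts in ganglion cell differentiation, and ISL2 is a LIM homeodomain factor of ganglion cell subsets, related to ISL1, the partner of POU4F2. The EBF1 motif took 0.0219% and 0.0216% of double-high counts, 0.0230% and 0.0217% in cells high for POU4F alone, 0.0218% and 0.0209% in cells high for proneural alone, and 0.0208% and 0.02004% in cells high for neither. EBF1 was higher than in cells high for neither by 0.095 ± 0.014 (edgeR adjusted p = 0.00029) and than in cells high for proneural alone by 0.047 ± 0.014 (adjusted p = 0.035). The second of these was lost when cells were weighted equally (limma adjusted p = 0.27) and at the top 20% cut (0.11). Its difference from cells high for POU4F alone was -0.040 ± 0.014, with adjusted p = 0.053, which became 0.019 with TMM scaling and 0.011 by DESeq2. Across cells the EBF1 share had r of 0.446 and 0.434 with the POU4F score and the ISL2 share 0.578 and 0.505. The place of both motifs among the classes is thus tied to the choice of cells. ISL2 was higher than in cells high for neither by 0.027 ± 0.0033 (adjusted p = 7.8e-05) and than in cells high for proneural alone by 0.021 ± 0.0033 (adjusted p = 0.0015). In 39.7% and 47.6% of double-high cells the EBF and ISL score was in the library's top 25%, against 64.8% and 53.0% of cells high for POU4F alone and 24.8% and 26.5% of cells high for proneural alone.

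REST represses neuronal genes in cells that are not neurons, and openness at its motif is read here only as a count. The REST motif took 0.144% and 0.145% of double-high counts, against 0.140% and 0.139% in cells high for neither, 0.143% and 0.142% in cells high for proneural alone, and 0.146% and 0.145% in cells high for POU4F alone. It was higher than in cells high for neither by 0.062 ± 0.0058 (edgeR adjusted p = 1.6e-05) and than in cells high for proneural alone by 0.039 ± 0.0058 (adjusted p = 0.0013). The latter had a limma adjusted p = 0.088 with cells weighted equally. The REST share had r of 0.357 and 0.341 with the POU4F score, so its place among the classes is tied to the choice of cells.

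Photoreceptor-type motifs were also between the single classes, on the opposite side. CRX and OTX2 are homeodomain factors that direct photoreceptor fate, and GSC, PITX3 and Dmbx1 bind similar patterns, so the 8 motifs of this list share counts. Their relation to the scores varied, with r to the proneural score of 0.546 and 0.491 for OTX2 but 0.249 and 0.211 for OTX1. Against cells high for proneural alone 6 of 8 were lower (all tested motifs, 19.5% lower), OTX1 by -0.057 ± 0.0044 (adjusted p = 1.5e-05), Crx by -0.058 ± 0.013 (adjusted p = 0.0084) and GSC by -0.060 ± 0.0093 (adjusted p = 0.0015). Against cells high for POU4F alone all 8 were higher (all tested motifs, 18.8% higher), Dmbx1 by 0.084 ± 0.012 (adjusted p = 0.00049) and PITX3 by 0.038 ± 0.0044 (adjusted p = 0.00013). The Crx call against POU4F alone had an adjusted p = 0.0503 with TMM scaling, and the GSC call 0.054 by limma. The Crx motif took 0.0113% and 0.0107% of double-high counts, 0.0120% and 0.0115% in cells high for proneural alone, 0.0108% and 0.0105% in cells high for POU4F alone, and 0.0108% and 0.0103% in cells high for neither. Of the double-high cells 46.2% and 34.1% were in the library's top 25% of the CRX and OTX score, against 66.2% and 64.6% of cells high for proneural alone and 12.4% and 16.02% of cells high for POU4F alone.

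SCRT1 and SCRT2, zinc finger repressors of newborn neurons that bind E-box-like patterns, lay between the single classes. The SCRT2 motif took 0.0109% and 0.0106% of double-high counts, 0.0116% and 0.0113% in cells high for proneural alone, and 0.0103% and 0.01001% in cells high for POU4F alone. SCRT2 was higher than in cells high for POU4F alone by 0.096 ± 0.014 (edgeR adjusted p = 0.00072) and lower than in cells high for proneural alone by -0.110 ± 0.014 (adjusted p = 0.00064). SCRT1 had 0.068 ± 0.0099 (adjusted p = 0.00066) and -0.091 ± 0.0098 (adjusted p = 0.00022) in the same comparisons. Both motifs were also lower than in cells high for neither, SCRT1 by -0.096 ± 0.0097 (adjusted p = 2.3e-05). Across cells the SCRT1 share had r of -0.489 and -0.444 with the POU4F score, and the SCRT2 share -0.439 and -0.397, so their order among the classes is tied to the choice of cells. SNAI2, whose pattern is a plain E-box and whose r with the proneural score was 0.485 and 0.459, was above all 3 other classes instead, by 0.072 ± 0.0037 (adjusted p = 1.6e-07) against neither. Its place is thus also tied to the choice of cells, and its call against proneural alone was lost with cells weighted equally (limma adjusted p = 0.11).

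**Figure D3:**
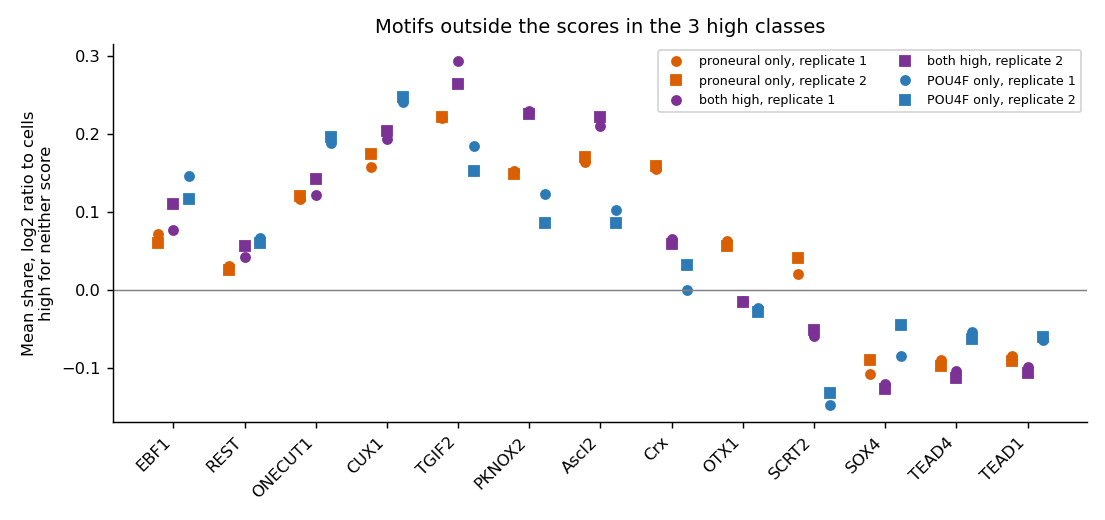
Mean share of 13 motifs outside the scores in the cells high for proneural alone, for both and for POU4F alone, as log2 ratio to cells high for neither, with 1 point per replicate. ONECUT1, CUX1, Crx, OTX1 and SCRT2 in double-high cells lie between the single classes, TGIF2, PKNOX2 and Ascl2 lie above both, and TEAD1, TEAD4 and SOX4 lie lowest.

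Several E-box motifs were highest in the double-high cells. These patterns overlap those of the proneural score, so they are described with no test. The Ascl2 motif took 0.133% and 0.131% of double-high counts, against 0.129% and 0.127% in cells high for proneural alone, 0.123% and 0.120% in cells high for POU4F alone, and 0.115% and 0.113% in cells high for neither. The double-high cells were above every other class in both libraries. MSC, at 0.0258% and 0.0260%, was also above proneural alone, at 0.0250% in both libraries, and Tcf21 and TAL1::TCF3 lay 0.20 and 0.19 above cells high for neither on the log2 scale. Twist2, whose pattern is also an E-box, lay 0.155 above cells high for POU4F alone. Although the cells were chosen for the proneural score, the Ascl2 share was also related to the POU4F score across cells, with r of 0.439 and 0.406, beside 0.689 and 0.650 with the proneural score. OLIG2, by contrast, took 0.0265% and 0.0269%, below the 0.0269% and 0.0278% of cells high for proneural alone, and its r was -0.0829 and -0.0558 with the POU4F score and 0.677 and 0.612 with the proneural score. Of the double-high cells 84.6% and 87.8% were in the top 25% of the ASCL and E-box score, against 66.9% and 67.4% of cells high for proneural alone.

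The motifs of TGIF1, TGIF2 and PKNOX2, TALE-class homeodomain proteins, followed the same order. The TGIF2 motif took 0.0135% and 0.0122% of double-high counts, 0.0128% and 0.0118% in cells high for proneural alone, 0.0125% and 0.0113% in cells high for POU4F alone, and 0.0110% and 0.0101% in cells high for neither. TGIF2 was higher by 0.280 ± 0.010 (edgeR adjusted p = 1.8e-08) against neither, the largest such difference among the called motifs with at least 100 counts per cell. It was higher by 0.106 ± 0.011 (adjusted p = 5.2e-05) against POU4F alone and by 0.069 ± 0.010 (adjusted p = 0.0014) against proneural alone. PKNOX2 was higher by 0.227, 0.122 and 0.085 in these comparisons. The palindromic patterns of this class are known to contain an E-box core, and the TGIF2 share had r of 0.497 and 0.438 with the proneural score, so these calls do not stand apart from the choice of cells.

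**Figure D4:**
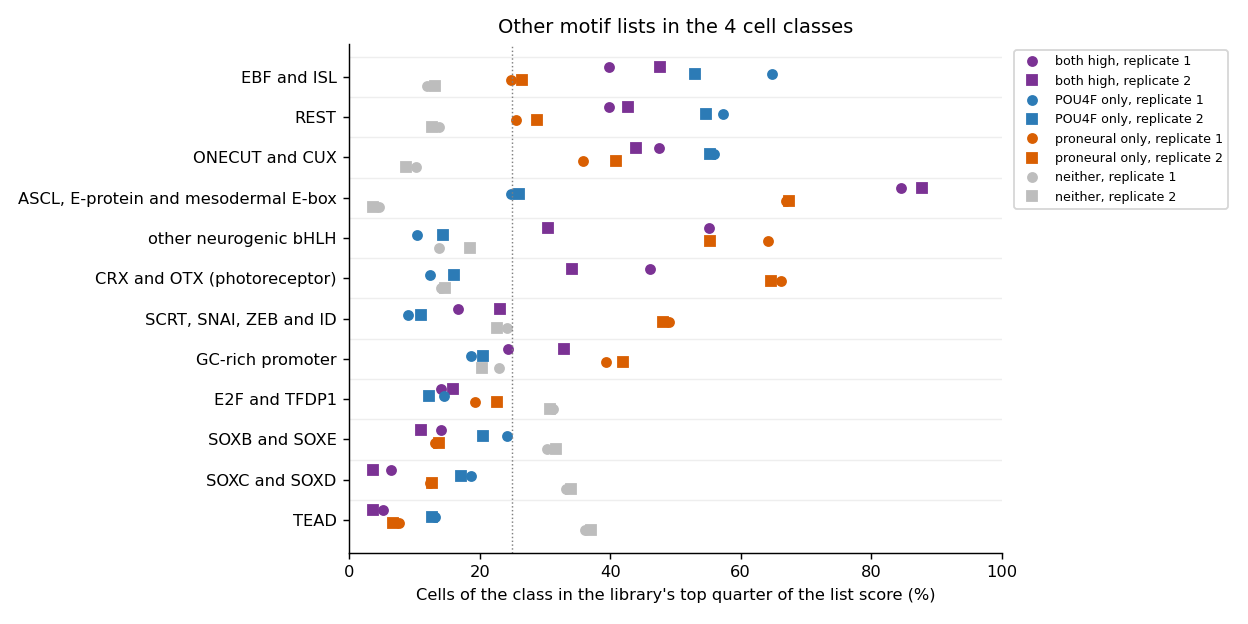
Percent of the cells of each class that were in their library's top 25% for the score of 12 motif lists, with 1 point per class and replicate; the dotted line is 25%. Double-high cells lie between the single classes for EBF and ISL, REST, ONECUT and CUX, and CRX and OTX, above both for the ASCL and E-box list, and below all other classes for TEAD and for SOXC and SOXD.

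A further comparison asked whether the double-high cells were what the 2 single classes add up to, as log2 difference of double-high from POU4F alone, minus proneural alone, plus neither. A value of 0 means that the 2 differences from neither add. Of 538 motifs 171 departed from 0 (31.8%), 107 above (19.9%) and 64 below (11.9%), or 64 and 126 with TMM scaling, and 58 were called with a size of at least 0.05 (10.8%). Without the library block edgeR called 0, with 64 at an unadjusted p under 0.05, whereas with the block DESeq2 called 189 and limma 104. All 4 TEAD motifs were above 0, by 0.042 to 0.068 (TEAD2 0.068 ± 0.013, edgeR adjusted p = 0.0046). In these values TEAD was reduced in double-high cells by less than the sum of its reductions in the single classes. The TEAD1 call was lost at the top 30% cut (edgeR adjusted p = 0.070). Of 5 ONECUT and CUX motifs 4 were below 0, CUX1 by -0.196 ± 0.020 (adjusted p = 0.00031) and ONECUT1 by -0.180 ± 0.012 (adjusted p = 2.2e-05), so their gain was also less than the sum. EBF1, at -0.088 ± 0.020 (adjusted p = 0.0093), and 7 of 8 CRX and OTX motifs were below 0 too, as was REST, at -0.036 ± 0.0083 (adjusted p = 0.0099, or 0.28 at the top 30% cut). The motifs of the scores, which fixed the classes, also had medians below 0, at -0.044 for POU4F and -0.043 for proneural. As given above, the double-high cells had a lower median of each score than the single class high for it. TEAD, ONECUT, EBF1, REST and CRX and OTX motifs are related to the scores across cells. How much of their departure comes with the choice of cells was not tested.

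The remaining motifs at the extremes of these comparisons belonged to none of these groups. Against POU4F alone the lowest were ZBTB7B, at -0.194 ± 0.037 (edgeR adjusted p = 0.0032), Pax6, at -0.118 ± 0.029 (adjusted p = 0.010), and JUN, at -0.103 ± 0.011 (adjusted p = 6.9e-05). The JUN share had r of 0.387 and 0.393 with the POU4F score. By limma ZBTB7B had an adjusted p = 0.13. HIF1A, FOSB::JUN, Nfe2l2 and ZBTB7C were lower there by -0.067 to -0.076. The HIF1A and ZBTB7C calls were also lost by limma (adjusted p = 0.12 for each), and the Pax6 call at the top 20% cut (edgeR adjusted p = 0.056). PAX6 is a progenitor factor that also persists in ganglion and amacrine cells, and its motif took 0.0034% of counts in double-high cells. In the comparison with neither, Pax6, SRF, CLOCK and Nfe2l2 were lower by -0.104 to -0.122. IRF9, T and RXRA::VDR were lower than in cells high for proneural alone, by -0.109, -0.108 and -0.073, and TEF and HOXD12 higher, by 0.083 and 0.071. The T call was lost by limma (adjusted p = 0.0997). CENPB departed most upward from the sum, by 0.136 ± 0.021 (adjusted p = 0.0024), followed by SRF, NR1H4, IRF2, HOXA2, FOSL2::JUN, FOXH1 and RORB at 0.079 to 0.103, and FOSB::JUN and MAFG departed downward, by -0.141 and -0.121, after CUX1 and ONECUT1. Of these calls, SRF, FOXH1 and RORB were lost by limma (adjusted p = 0.22, 0.087 and 0.062). NR1H4 and RORB were lost at the top 30% cut (edgeR adjusted p = 0.065 and 0.19), and RORB with a minimum of 1000000 counts (0.099).

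The double-high cells were not uniform. They were divided within each library into 3 groups of equal rank by the balance of the scores, POU4F minus proneural, of 26 cells each in replicate 1 and of 28, 27 and 27 in replicate 2. From the most proneural to the most POU4F group the mean EBF and ISL score went from -0.020 to 0.030 and 0.092 in replicate 1, and from 0.0087 to 0.027 and 0.117 in replicate 2. The REST score went from -0.013 to 0.073 and from -0.00015 to 0.080. In the other direction, the mean score of OLIG2, BHLHE22 and related neurogenic motifs went from 0.139 to 0.047 and from 0.084 to -0.0039, and the CRX and OTX score from 0.077 to 0.010 and from 0.032 to 0.014. Progenitor homeodomain motifs, of VSX, RAX, LHX2 and related factors, went from 0.021 to -0.034 and from 0.029 to -0.039, and E2F motifs from -0.022 to -0.047 and from -0.0058 to -0.060. These groups were cut on the scores that chose the cells, and several lists follow those scores across all kept cells, so the values are a description. The EBF and ISL list had r of 0.521 and 0.499 with the POU4F score and REST 0.357 and 0.341, while the OLIG and BHLHE22 list had 0.625 and 0.552 with the proneural score. The CRX and OTX list had r of 0.559 and 0.473 with the proneural score, and the E2F list -0.293 and -0.229 with the POU4F score. The progenitor homeodomain list had r from 0.0273 to 0.103 with the 2 scores. An r over all kept cells does not give a list's relation to the balance within the double-high cells, which was not tested. The TEAD score was below the median in all 6 groups, from -0.086 to -0.027, and the ASCL and E-box score above it in all, from 0.079 in the most proneural group of replicate 1 to 0.107 in the most POU4F group of replicate 2. Median totals of the groups were 3740217, 3769256 and 3440183 counts in replicate 1 and 2288114, 3473958 and 3655503 in replicate 2, so depth moved with the balance in replicate 2, and its part in these values was not tested.

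**Figure D5:**
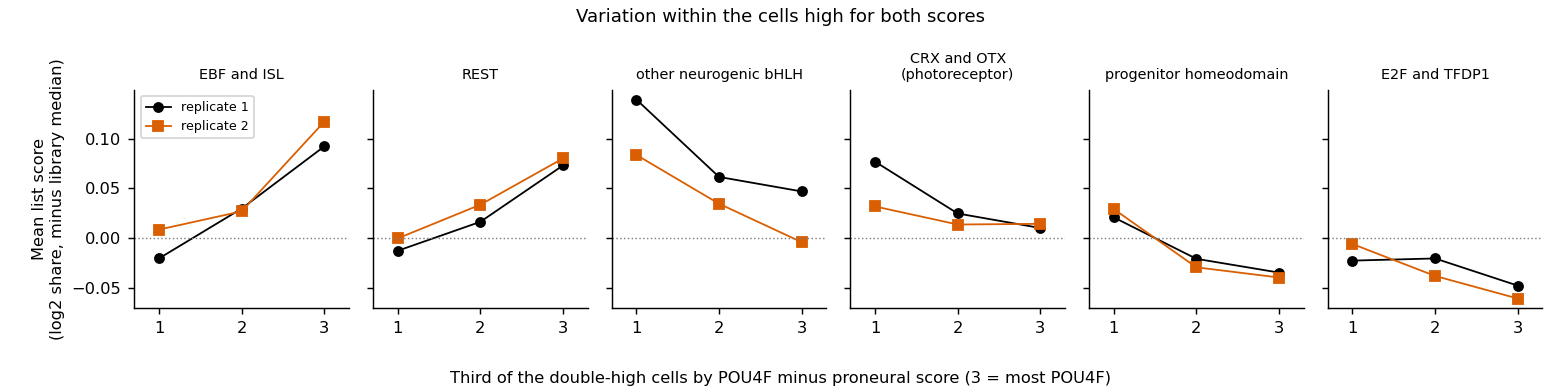
Mean score of 6 motif lists (log2 share minus the library median) in the double-high cells split into 3 groups of equal rank by POU4F minus proneural score, 1 line per replicate. EBF and ISL, and REST, are highest in the most POU4F group, and the other 4 lists end lower there than in the most proneural group, in both replicates.

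Double-high cells were found at all depths and were fewest among the deepest cells of replicate 2. With the cells of each library divided into 4 equal groups by total count, in the 3 shallower groups 8.07% to 10.8% of replicate 1 and 9.13% to 9.51% of replicate 2 were double-high. In the deepest group it was 7.66% and 3.05%, and there only 15.3% and 10.3% of cells were high for POU4F motifs. The observed number of double-high cells was 1.02 to 2.06 times the product of the single shares in the depth groups of both libraries. Motifs of other cells that a dissected retina could hold are set against all tested motifs, of which 22.7% were higher and 35.9% lower than in cells high for neither. Against neither, 1 of 4 pigment epithelium motifs was higher and none lower, 1 of 10 endothelial and erythroid motifs was lower, and 2 of 18 microglia-type motifs were higher and 5 lower, with medians of 0.011, 0.0068 and 0.0034, where that of all tested motifs was -0.0067. These motifs name factor families used by many cell types, and a cell of another type cannot be told from them alone.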

How the data were processed

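The authors deposited, for each of 2 libraries, a matrix of raw counts (579 motifs by barcode); per the submitters' processing notes the tool was Cell Ranger and the build mm10, and per the file headers the software version was 1.1.0. How peaks were called and motifs found is not given in the sources used here. Cells were barcodes with at least 300000 counts and above the same barcode's total in the other library. The members and motif lists were chosen with earlier results of these data known. Counts were summed per library and class (8 sums, 3 residual degrees of freedom) and fitted with edgeR 4.0.16 (R 4.3.3), scaled by total count with no TMM, the library as a block because all 4 classes come from the same libraries. Dispersions were held at or above 1e-04, since below it this version returned wrong deviances for counts of this size. List scores used a pseudocount of 0.5 counts. DESeq2 1.42.0 and limma 3.58.1 were alternatives; the fit was tested on simulated data. Named motifs are the 8 highest and 8 lowest called motifs per comparison, with the same sign in both libraries and at least 100 counts per cell, and members of the lists; some of these are not reported here. Adjusted p-values are Benjamini-Hochberg over all motifs. No sequences or coordinates are given.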

Additional observations from a re-analysis of the deposited data

How the results depend on the processing

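The share of double-high cells averaged 8.28% over the 2 libraries and the ratio to the product 1.32; leaving out 1 library gave 7.80% to 8.76% and 1.25 to 1.40. The share follows the cut by construction, at 0.406%, 1.63%, 4.92%, 11.9% and 19.4% for the top 10%, 15%, 20%, 30% and 40%. The ratio reversed at the top 10% (0.402) and 15% (0.718), and was 1.21 at 40%; the cause was not tested. With POU4F1 and NEUROD1 alone the share was 9.20% and the ratio 1.47, and with each cell thinned to 300000 counts 7.54% and 1.202. Scores corrected for depth or promoter motifs, other motifs of the scores, a minimum of 1000000 counts, both copies of shared barcodes and leaving out the deepest 10% stayed within the spread between libraries. Without the replicate block, which leaves the libraries' own difference in the error, edgeR called 7, 5, 60 and 0 motifs against POU4F alone, proneural alone, neither and in the departure from the sum, where DESeq2 called 189. Weighting cells equally (limma), 95 were called against POU4F alone and 104 in the departure; the top 20% cut gave 280 and 315 of these, and the top 30% cut 62 in the departure. The cause of these was not tested. Of 131 values of motifs, 2 reversed, both at the top 30% cut and not called there: TEAD2 (-0.016) and EBF1 (0.0032) against POU4F alone. Without the block 104 of the 131 lost their call, by limma 20, at the top 30% cut 11, at the top 20% cut 6, and at most 3 under any other setting. With 1 library left out no test was possible, and the differences of all 131 kept their sign. Rare motifs limit precision: E2F1, for example, had an SE of 0.037 against neither, where TEAD1 had 0.0059.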

Other observations

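Motif groups not described so far gave mostly small differences. The JUN motif was lower in double-high cells than in cells high for POU4F alone, by -0.103 ± 0.011 (edgeR adjusted p = 6.9e-05), and higher than in cells high for proneural alone, by 0.064 ± 0.011 (adjusted p = 0.0026). Of 20 AP-1 motifs, to which JUN belongs, 5 were higher and 5 lower than in cells high for POU4F alone (all tested motifs, 18.8% and 15.4%), and 1 was higher and 10 lower than in cells high for neither (22.7% and 35.9%). DLX and BARHL motifs, of homeodomain factors that act in ganglion and amacrine cells, were higher than in cells high for proneural alone for 4 of 8 members (all tested motifs, 11.3%), DLX6 by 0.017 ± 0.0029 (adjusted p = 0.0030). LHX2, a factor of retinal progenitors, was higher than in cells high for POU4F alone by 0.049 ± 0.0094 (adjusted p = 0.0032), and had 0.0068 (adjusted p = 0.53) against neither. Of the 8 progenitor homeodomain motifs, to which LHX2 and Pax6 belong, 3 were higher and 1 lower against POU4F alone (all tested motifs, 18.8% and 15.4%). Against neither 1 was higher and 5 lower (22.7% and 35.9%), Pax6 by -0.122. Of 10 TFAP2 and PROX1 motifs, 1 was higher than in cells high for proneural alone and 0 lower (all tested motifs, 11.3% and 19.5%). The list median was -0.0045, where that of all tested motifs was -0.0053. The 1 was PROX1, which directs horizontal cell fate, by 0.139 ± 0.027 (adjusted p = 0.0052). It did not meet the sign and count limits set for the 8 highest motifs. HES, HEY and RBPJ motifs belong to the Notch pathway that keeps progenitors from differentiating. Of these 7, 3 were lower than in cells high for neither (all tested motifs, 35.9%). None was called against POU4F alone (all tested motifs, 18.8% higher and 15.4% lower). Against proneural alone 0 were higher and 1 lower (11.3% and 19.5%). The 11 T-box motifs, which include that of EOMES, a ganglion cell factor downstream of POU4F2, hold 7 with distinct counts. None was called against POU4F alone (all tested motifs, 18.8% higher and 15.4% lower). Against neither 5 were higher, by at most 0.013, and 1 lower (22.7% and 35.9%). Against proneural alone 0 were higher and 2 lower (11.3% and 19.5%).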
